A study of Mus musculus with 477 samples.

Results

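The genes described here build fatty acids and triglycerides and pack them into milk fat. They are 39 genes of the 21004 in a table of read counts from 477 single mammary cells, and they were taken by name: genes for acetyl-CoA and NADPH supply, fatty acid synthesis, elongation, desaturation, acyl-CoA synthesis, triglyceride assembly, the lipid droplet and milk fat globule, fatty acid binding and uptake, and the transcription factors that control them. The cells were captured on Fluidigm C1 chips, which isolate each cell in a chamber and yield full-length cDNA. Luminal cells, the secretory lineage of the gland, were taken from 3 virgin and 4 pregnant mice (day 12.5), and 4 further mice gave a tumor each. The table holds reads and no molecular identifiers.

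All animals carried MMTV-Cre, a transgene driven by the mouse mammary tumor virus promoter. The luminal strains also carried the ROSA mT/mG reporter, which turns cells green once Cre has acted, and whether the tumor mice did is not given in the sources used here. No group free of Cre, and none with both genes intact, was among the samples. By the authors' methods the genotypes were Brca1 fl/fl (Br), Brca1 fl/fl with Trp53 fl/+ (Br53) and Trp53 fl/+ with wild type Brca1 (53). The background was mixed C57BL/6 and 129/Sv. A supplementary legend on flow cytometry of mammary cells instead gives Trp53 fl/fl for both strains with a Trp53 allele. The sources used here do not settle which the luminal mice carried. Luminal cells were sorted as CD24 high, CD29 low and green from females of 3 to 4 months; the names begin with v (virgin) or p (pregnant) and end with L. The virgin mice were vBrL (35 cells), vBr53L (39 cells) and v53L (40 cells), and the pregnant mice were pBrL-1 (71 cells), pBrL-2 (38 cells), pBr53L (53 cells) and p53L (36 cells). Tumors of about 1 cm were sorted on CD24 alone, and their age is not in the labels: BrT1 (47 cells) and BrT2 (37 cells) from Br mice, Br53T1 (30 cells) and Br53T2 (51 cells) from Br53 mice. Most groups are thus 1 mouse, and the mouse was the replicate in every test. Reads were summed over the cells of a mouse, and in such sums fewer expressing cells and less RNA per cell cannot be told apart.

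Milk fat is made in the luminal cells. ATP citrate lyase and acetyl-CoA carboxylase supply fatty acid synthase with its substrates, desaturases and elongases modify the product, and acyltransferases, lipins and diacylglycerol acyltransferases join the fatty acids to glycerol. The triglyceride forms droplets coated by perilipin 2, and the droplets leave the cell wrapped in plasma membrane, a step in which butyrophilin (Btn1a1) and xanthine oxidoreductase (Xdh) take part. The program starts during pregnancy and is under the control of prolactin and of the transcription factor SREBP1.

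Reads per mouse ranged from 40.3 M to 116 M, and per cell from 170209 to 3550564. A tumor (Br53T2) shared a chip with luminal cells (pBrL-2) on SC6 alone. Virgin and pregnant cells of 1 genotype shared a chip on SC7 (Br53) and on SC9 (53). The targeted genes were measured over all exons, so a deleted exon does not show. Brca1 lay between 1.70 and 57.2 CPM (reads of a gene per 1000000 reads of the mouse) in the Brca1 fl/fl mice, a range that holds the 6.99 and 5.21 CPM of v53L and p53L, and Trp53 lay between 5.05 and 515 in all mice. The sum of 8 luminal markers was between 7865 and 13515 CPM in all luminal mice and between 4495 and 7350.4 in 3 tumors, but only 635 in BrT1, where Cdh1 was at 0 and the fibroblast gene Dcn at 4356. In Br53T2 the basal markers summed to 5597 CPM, against at most 472 in any luminal mouse. The sum of 8 adipocyte markers was between 3.82 and 24.9 CPM in luminal mice and between 0.210 and 13.1 in tumors. Nearly all of it was Lipe, a lipase that the list of other lipid genes also holds, whereas Adipoq and Cfd had no read in any mouse and the other 5 markers stayed below 1 CPM.

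The promoter letters of the genes could be compared only in part, since RefSeq windows (GRCm38.p6) were at hand for 29 of the 39. The windows of Btn1a1, Cidea, Dgat1, Dgat2, Fabp4, Fabp5, Fads1, Scd1, Scd2 and Xdh were not analysed here. Printed below are the 250 bases before the start site of Lpin1, which was called lower in tumors, and of Plin2, Fasn and Acly, which stood higher in every pregnant than in every virgin mouse. Capitals mark matches, on either strand, to any of 5 motifs: the sterol response element core TCACNCCAC, the E-box CACGTG, the CCAAT box, the STAT-type element TTCNNNGAA and the GC box GGGCGG. All 4 lie on the minus strand, at chr12:16610967-16611216, chr4:86670060-86670309, chr11:120824548-120824797 and chr11:100528001-100528250 in that order.
Lpin1: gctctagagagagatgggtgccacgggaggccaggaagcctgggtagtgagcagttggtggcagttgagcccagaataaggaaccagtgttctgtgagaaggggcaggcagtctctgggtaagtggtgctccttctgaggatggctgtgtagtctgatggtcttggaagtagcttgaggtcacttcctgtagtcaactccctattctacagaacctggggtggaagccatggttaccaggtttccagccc
Plin2: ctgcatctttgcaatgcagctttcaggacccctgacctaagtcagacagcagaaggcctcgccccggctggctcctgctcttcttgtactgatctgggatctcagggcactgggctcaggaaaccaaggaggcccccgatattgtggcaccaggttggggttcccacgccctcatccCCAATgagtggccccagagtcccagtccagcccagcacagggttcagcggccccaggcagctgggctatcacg
Fasn: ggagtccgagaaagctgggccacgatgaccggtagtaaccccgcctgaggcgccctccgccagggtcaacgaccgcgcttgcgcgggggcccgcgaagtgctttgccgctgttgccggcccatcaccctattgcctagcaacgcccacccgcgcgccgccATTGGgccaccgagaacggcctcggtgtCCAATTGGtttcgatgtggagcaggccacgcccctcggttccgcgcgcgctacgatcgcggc
Acly: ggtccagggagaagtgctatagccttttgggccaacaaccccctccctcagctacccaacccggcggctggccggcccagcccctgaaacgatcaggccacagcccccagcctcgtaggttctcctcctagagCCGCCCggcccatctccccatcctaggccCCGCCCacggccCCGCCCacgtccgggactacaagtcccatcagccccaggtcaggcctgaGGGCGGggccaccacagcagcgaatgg
Lpin1 held none of the motifs in these 250 bases. Plin2 held a single CCAAT box, Fasn held 3 of which 2 overlap, and Acly held 4 GC boxes. Over all 42 windows of the 29 genes, a CCAAT box was present in 21 of 42, against 33.8% of the 32851 mouse promoter windows, and a GC box in 25 (59.5%), against 32.7%. The sterol response element core was in 1 window (2.38%, that of Mlxipl) against 1.05%, the E-box in 5 (11.9%) against 6.02%, and the STAT-type element in 1 (2.38%, Agpat1) against 7.02%. These matches describe the letters and were not linked to binding.

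The genes together took 0.473% to 0.512% of reads in virgin mice, 0.901% to 1.21% in pregnant mice and 0.241% to 0.468% in tumors, so the 3 ranges did not overlap. The heat map of all members shows where these reads lie.

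**Figure D1:**
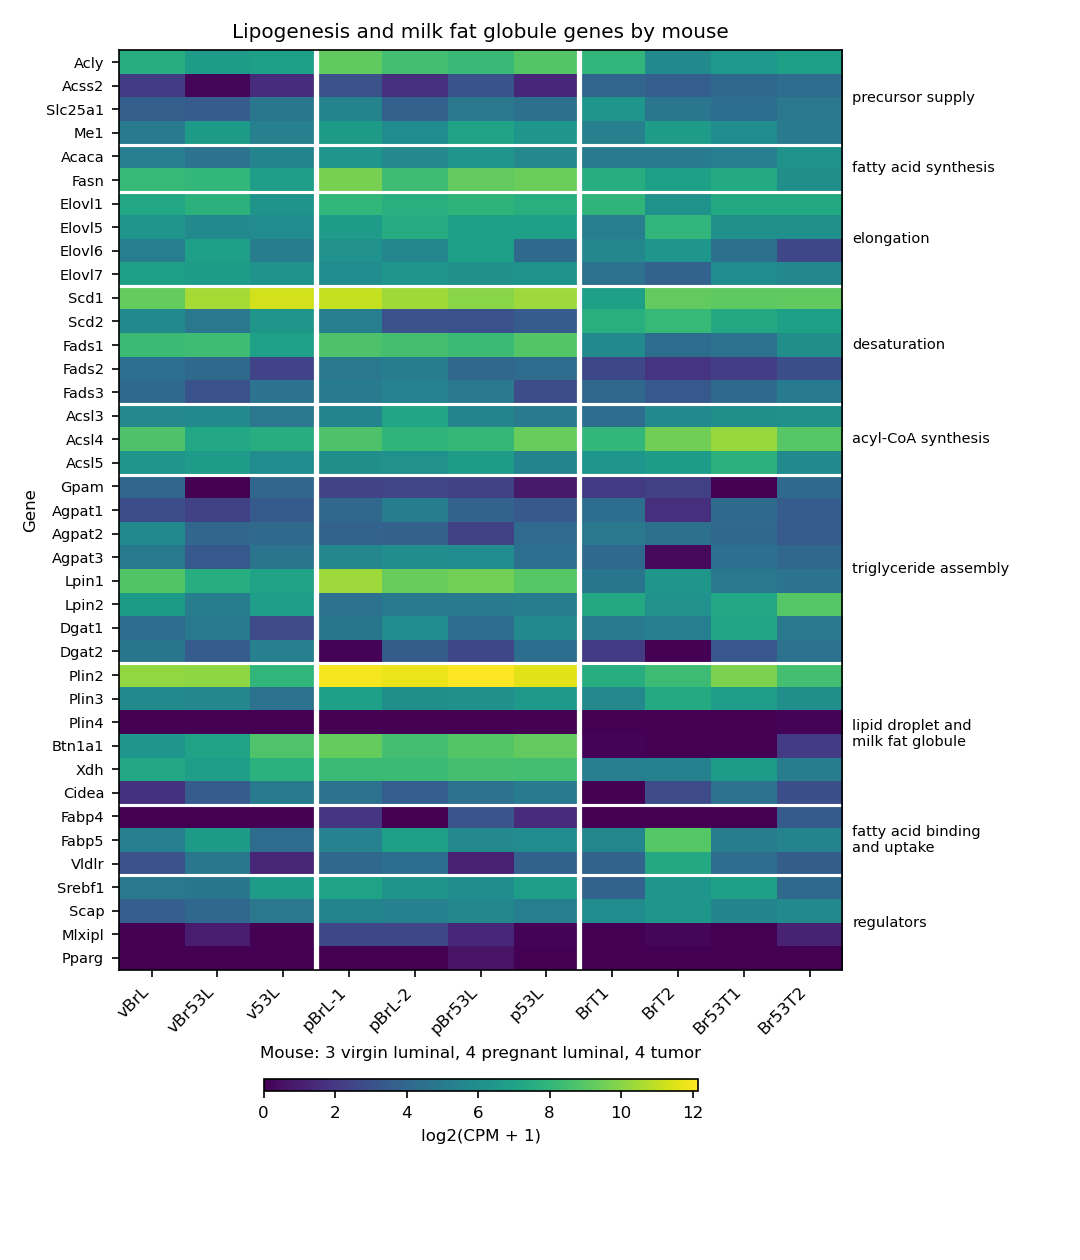
Level of each of the 39 genes (rows, grouped by role) in each of the 11 mice (columns), as log2(CPM + 1) on a color scale from 0. Plin2 and Lpin1 are brightest in the pregnant mice, Btn1a1 is dark or nearly so in all 4 tumors, and Plin4, Pparg and Fabp4 are dark in nearly every mouse.

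Compared per kilobase of exon (RPKM), the most abundant member in virgin mice was Scd1, the main stearoyl-CoA desaturase, with a mean of 315 RPKM, ahead of Plin2 with 236. Their ranges in virgin mice overlapped, 124 to 525 for Scd1 and 72.3 to 327 for Plin2. In pregnant mice Plin2 came first with 1086 RPKM and its range of 882 to 1287 lay above that of Scd1, 208 to 435. Btn1a1 followed with a mean of 125 RPKM, then Lpin1 (83.5), Elovl1 (82.6) and Fads1 (82.4), which do not differ beyond their spread. In tumors the order was headed by Acsl4, an acyl-CoA synthetase for polyunsaturated fatty acids, with a mean of 126 RPKM, and Plin2 with 125, whose ranges of 47.7 to 229.6 and 54.1 to 247 overlapped. At the other end, Plin4 had 7 reads in Br53T2 and none elsewhere, and Pparg, the adipocyte regulator, had 2 reads in vBr53L, 55 in pBr53L and none in any other mouse. Gpam, the mitochondrial glycerol-phosphate acyltransferase that opens triglyceride assembly, never exceeded 16.5 CPM.

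The first comparison asked how luminal cells change in pregnancy, with 4 pregnant against 3 virgin mice and genotype as a covariate. Genes of fatty acid synthesis, the lipid droplet and the milk fat globule stood higher in pregnant mice, by 2.00-fold to 5.27-fold for Acaca, Fasn, Acly, Plin2, Plin3, Btn1a1 and Xdh, and the gene for the second lipin, Lpin2, stood 2.40-fold lower. None of these differences passed the threshold over all genes. By edgeR's quasi-likelihood test with Benjamini-Hochberg adjustment, 0 of the 37 members tested were called (all genes 0.0159%, 2 of 12615). Plin4 and Pparg were too low to be tested. Gpam, Fabp4 and Mlxipl did not reach the filter in each arm by itself and are left out of the counts below, which cover the remaining 34 members. At an unadjusted p under 0.05 there were 12 of 34, 10 higher and 2 lower (all genes 9.74%, or 9.49% of those past the filter in each arm), and DESeq2 called 7, 6 of them higher (all genes 7.67%).

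Without regard to any test, 9 of the 34 lay higher in every pregnant mouse than in every virgin mouse (all genes 6.32%, or 5.55% of those past the filter in each arm): Acly, Acaca, Fasn, Elovl5, Lpin1, Plin2, Plin3, Xdh and Scap. Of the 34, Lpin2 alone lay lower in every pregnant mouse (all genes 5.58%, or 6.42%). Without the cell that held most reads of a gene in each mouse, Lpin2 overlapped, Dgat2 was lower in every pregnant mouse, and Fads1 and Btn1a1 joined the higher ones. The median log2 fold change of the 34 was 0.94, against 0.01 over all genes past the filter in each arm, and 28 were above 0. The caseins alone took 3.48% to 4.09% of reads in virgin and 9.61% to 17.4% in pregnant mice. Taking casein reads out of the totals left the fitted differences of the non-overlapping members within 0.01 (log2).

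Among precursor genes, Acly makes cytosolic acetyl-CoA from citrate. It had 186, 103 and 115 CPM in vBrL, vBr53L and v53L, and 584, 360.0, 297 and 477 in pBrL-1, pBrL-2, pBr53L and p53L. The lowest pregnant value was thus well above the highest virgin one. The fitted log2 difference was 1.66 ± 0.31 (SE; edgeR adjusted p of 0.216). The citrate carrier Slc25a1, the NADPH source Me1 and the acetate-using Acss2 had ranges that overlapped between the stages, with differences of 0.89, 1.02 and 1.28.

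Of the pair that makes palmitate, Fasn had 279, 259 and 112 CPM in the virgin mice and 802, 320.4, 594 and 675 in the pregnant mice. The gap between the stages was small, since vBrL and pBrL-2 were close. The difference was 1.56 ± 0.46 with an edgeR adjusted p of 0.409. Acaca, the carboxylase before it, lay between 23.5 and 42.9 CPM in virgin mice and between 51.1 and 80.2 in pregnant mice, a difference of 1.00 ± 0.45. Of the elongases, Elovl5 showed no overlap, with 54.9 to 79.1 against 103 to 180.5 CPM, while Elovl1 and Elovl7, which act on longer chains, and Elovl6, which extends palmitate, overlapped.

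The desaturases differed among themselves. Scd1 averaged 1541 ± 982 CPM (SD, n = 3) in virgin and 1452 ± 474 CPM (n = 4) in pregnant mice, a fitted difference of 0.11 ± 0.51. Its relative Scd2 had 55.4, 27 and 85.9 CPM in virgin mice and 36.2, 7.57, 7.22 and 10.5 in pregnant mice. Apart from pBrL-1 the pregnant values were all below the virgin ones, and a single cell gave 63% of the reads in pBr53L and 75.5% in p53L. The difference of Scd2 was -1.98 ± 0.71 with an edgeR adjusted p of 0.470. Fads1 and Fads2, which desaturate polyunsaturated fatty acids, overlapped between stages, with v53L lowest for both at 122 and 4.46 CPM.

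In triglyceride assembly the lipins, phosphatidate phosphatases, stood apart from each other. Lpin1 had 459, 187 and 125 CPM in the virgin mice and 1326, 647, 754 and 503 in the pregnant mice, a difference of 1.68 ± 0.37 with an edgeR adjusted p of 0.248. Lpin2 had 98.5, 33.6 and 108 CPM in the virgin mice and 21.8, 32.1, 32.5 and 33.4 in the pregnant mice. The groups did not overlap for Lpin2, yet vBr53L and p53L were nearly level. Its difference was -1.26 ± 0.48 with an edgeR adjusted p of 0.480. Gpam, the acyltransferases Agpat1, Agpat2 and Agpat3 and the last-step enzymes Dgat1 and Dgat2 all overlapped, as did the acyl-CoA synthetases Acsl3, Acsl4 and Acsl5 and the desaturase-like Fads3.

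Of the droplet and globule genes, Plin2 gave the largest difference. It coats the cytoplasmic droplet and had 1148, 1080.0 and 254 CPM in vBrL, vBr53L and v53L and 4092, 3545, 4519.5 and 3099 in pBrL-1, pBrL-2, pBr53L and p53L. Every pregnant mouse was far above every virgin mouse. The fitted difference was 2.40 ± 0.41, a 5.27-fold change, with an edgeR adjusted p of 0.173. Xdh had 148, 106 and 218 CPM in virgin and 312, 307, 372 and 355 in pregnant mice, and its difference was 1.23 ± 0.29 with an edgeR adjusted p of 0.280. The pregnant mice lay close together for Xdh. Btn1a1 overlapped, because v53L had 445 CPM against 81.6 and 127 in the other virgin mice, while the pregnant mice had 621, 364, 478 and 598. Cidea, a droplet fusion gene, stayed at or below 31.1 CPM in all mice.

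Of the regulators, Scap, the sterol sensor that escorts SREBP, had 11.5, 15.4 and 26.9 CPM in virgin and 43, 39.1, 49.3 and 35.1 in pregnant mice, a difference of 1.40 ± 0.55 with an edgeR adjusted p of 0.481. Srebf1 itself was at 28.2, 25.4 and 105 CPM in virgin and 133, 77.9, 60.2 and 110.0 in pregnant mice, so that v53L alone made the groups overlap. Mlxipl, the carbohydrate-responsive factor, stayed at or below 5.11 CPM. Fabp4, a fatty acid binding protein of adipocytes and macrophages, had 0 reads in all 3 virgin mice and 319, 1, 822 and 79 reads in the pregnant mice. In pBr53L, 91.7% of its reads came from a single cell. The 8 immune markers summed to 272 CPM in that mouse, 212 of it the macrophage gene Lyz2, and to at most 72.6 in the other luminal mice. Hematopoietic and endothelial cells were depleted before the sort, and the part of remaining immune cells in the Fabp4 level was not tested.

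The 2 chips that held both stages allowed a comparison within a chip, with 1 mouse a stage and no replicate. All mice on these chips are also in the fit above. Members that did not overlap between the stages had to keep their sign in each pair, so only the size of their difference is informative. The counts below include the 9 higher ones by construction. On SC7, pBr53L minus vBr53L was above 0 for 21 of the 34 members (46.9% of all genes past the filter in each arm), with a median of 0.63 on the log2(CPM + 1) scale against -0.08. On SC9, p53L minus v53L was above 0 for 22 of 34 (47.2% of all such genes), with a median of 0.31 against -0.09. Plin2 was higher by 2.06 and 3.60 on these chips, Lpin1 by 2.00 and 2.00, Fasn by 1.19 and 2.59 and Acly by 1.52 and 2.05. Lpin2 was level on SC7 (-0.04) and lower on SC9 (-1.66), and Acaca and Scap were higher by 1.73 and 1.61 on SC7 but only by 0.25 and 0.37 on SC9. Fads1 differed by -0.11 on SC7 and by 1.94 on SC9. The fibroblast gene Dcn was placed the other way, with 711, 579 and 176 CPM in the virgin mice and at most 25.4 in a pregnant mouse. The other 5 fibroblast markers were each below 1 CPM in every luminal mouse. The part of Dcn-positive cells in these differences was not tested.

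**Figure D2:**
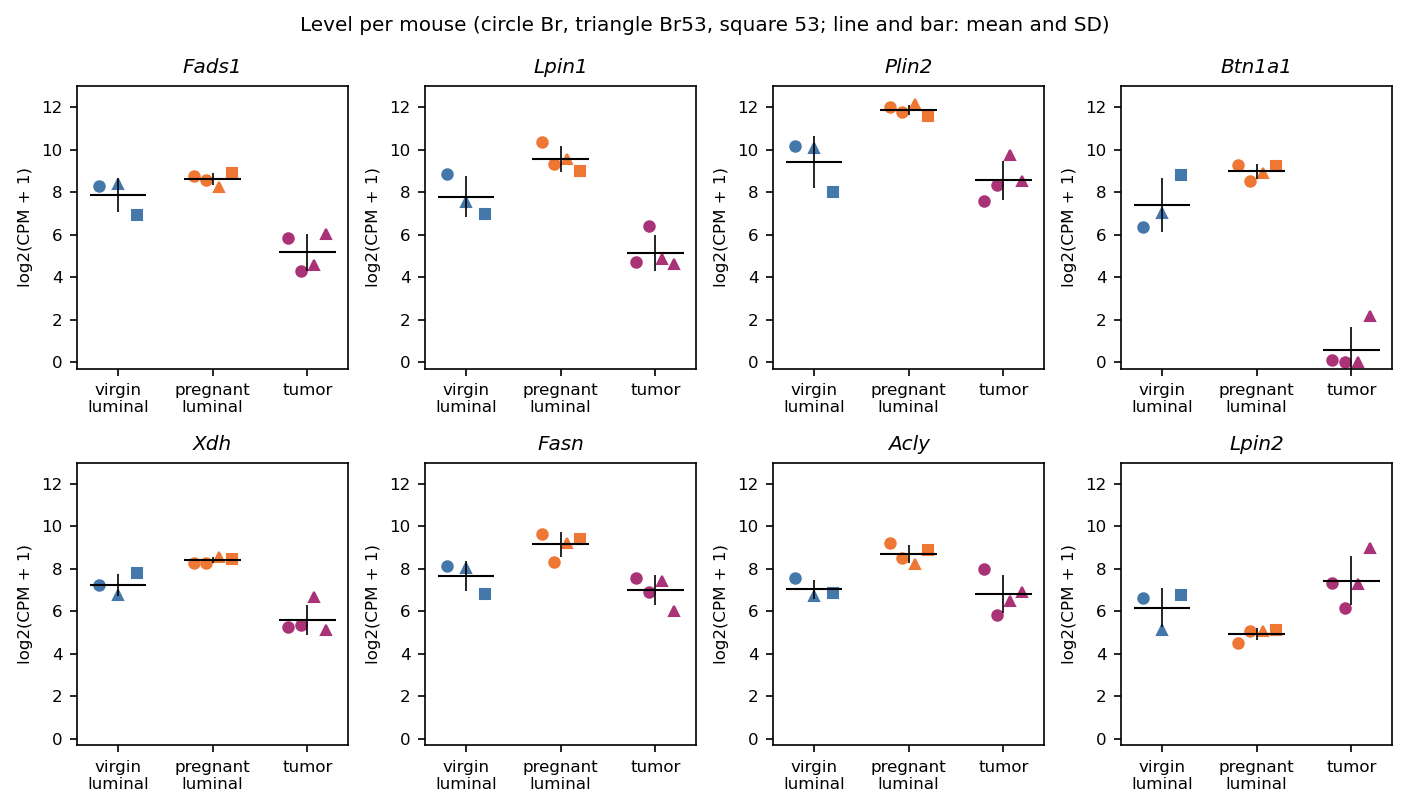
Level of 8 genes per mouse as log2(CPM + 1), for 3 virgin luminal, 4 pregnant luminal and 4 tumor mice; symbols give the genotype, the horizontal line the mean and the vertical bar the SD. Plin2, Xdh, Fasn, Acly and Lpin1 are higher in all pregnant than in all virgin mice, Lpin2 is lower, and Btn1a1 is at or near 0 in tumors.

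The second comparison set the 4 tumors against the 5 Brca1-deficient luminal mice (vBrL, vBr53L, pBrL-1, pBrL-2 and pBr53L). Fads1, the delta-5 desaturase, fell 9.77-fold, and Lpin1 fell 17.5-fold. The same comparison put the milk fat globule genes Plin2 and Xdh and the synthase Fasn lower in every tumor than in every one of these luminal mice, and Scd2 higher in every tumor, without passing the threshold. By edgeR, 2 of the 36 members tested were called, both lower (all genes 0.609%, 79 of 12978), and Plin4, Fabp4 and Pparg were too low to be tested. Gpam, Dgat2, Btn1a1, Cidea and Mlxipl did not reach the filter in each arm by itself and are left out of the next counts, which cover 31 members. DESeq2 called 9 of 31, 7 lower and 2 higher (all genes 6.44%). At an unadjusted p under 0.05 there were 12, 9 lower and 3 higher (all genes 13.8%, or 13.6% of those past the filter in each arm).

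Among these mice, 7 of the 31 were lower in each tumor than in each of the 5 Brca1-deficient luminal mice (all genes 2.51%, or 2.43% of those past the filter in each arm): Fasn, Scd1, Fads1, Fads2, Lpin1, Plin2 and Xdh. Luminal mouse v53L, which is not in this comparison, had Plin2, Fasn and Fads2 within the range of the tumors. Acss2 and Scd2 were higher in each tumor (all genes 5.01%, or 4.64%). Without the cell that held most reads of a gene in each mouse, Acss2 and Scd1 overlapped and Lpin2 was higher in each tumor. The median log2 fold change was -0.48 over the 31 members and 0.02 over all genes past the filter in each arm, with 20 of 31 below 0. Fabp5 and Vldlr, which bind fatty acids and take up lipoproteins, differed by 1.13 ± 0.82 and 1.85 ± 1.00, but by -0.95 and -0.13 without BrT2.

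Fads1 makes arachidonic and eicosapentaenoic acid. It had 309, 332, 428, 381 and 307 CPM in vBrL, vBr53L, pBrL-1, pBrL-2 and pBr53L, and 55.6, 18.5, 23 and 63.8 in BrT1, BrT2, Br53T1 and Br53T2. The luminal mice lay close together, at 351 ± 52.1 CPM (SD, n = 5), and all tumors were far below, at 40.2 ± 22.8 (n = 4). The fitted log2 difference was -3.29 ± 0.41 (SE), its edgeR adjusted p was 0.0114, and the call was lost only with virgin mice as the luminal arm (-3.18 ± 0.57, edgeR adjusted p of 0.302). Fads2, which acts before it on the same fatty acids, lay between 15.4 and 33.6 CPM in the luminal mice and between 2.62 and 6.51 in the tumors, a difference of -2.51 ± 0.59 with an edgeR adjusted p of 0.0803.

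Lpin1 had 459, 187, 1326, 647 and 754 CPM in the same luminal mice and 25.1, 84.7, 28.2 and 23.9 in the tumors. Even the highest tumor, BrT2, was below the lowest luminal mouse, vBr53L. The difference was -4.13 ± 0.69 with an edgeR adjusted p of 0.0331. The call was lost on dropping 6 of the 9 mice: the edgeR adjusted p was between 0.0564 and 0.0733 when pBrL-1, pBrL-2, pBr53L, BrT1, Br53T1 or Br53T2 was left out, with differences between -4.19 and -3.76, and 0.336 with virgin mice as the luminal arm (-3.09). It held without vBrL, vBr53L or BrT2 (0.0180 to 0.0446). Lpin2 was placed the other way, at 158, 70.5, 156 and 497 CPM in the tumors and 21.8 to 98.5 in the luminal mice. Only BrT2 lay within the luminal range. The difference of Lpin2 was 2.17 ± 0.59 with an edgeR adjusted p of 0.128.

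Butyrophilin was at 0 CPM or near it in every tumor. Btn1a1 had 81.6, 127, 621, 364 and 478 CPM in the luminal mice, and 7 reads in BrT1, none in BrT2, none in Br53T1 and 320 reads (3.52 CPM) in Br53T2. Of the reads in Br53T2, 99.7% came from 1 cell. The fitted difference was -8.69 ± 1.92, and -13.47 without Br53T2. Since the gene passed the filter only through the luminal mice and 2 tumors are at 0, these values are no test and no bound on the fold. Plin2 had 1148, 1080.0, 4092, 3545 and 4519.5 CPM in the luminal mice and 190.1, 324, 867 and 370.2 in the tumors. Every tumor thus had Plin2 reads, unlike Btn1a1. The Plin2 difference was -2.86 ± 0.62 with an edgeR adjusted p of 0.0648. With the 2 virgin mice as the luminal arm it was -1.52, and with the 3 pregnant mice -3.36. Xdh had 148, 106, 312, 307 and 372 CPM in the luminal mice and 37.2, 39.2, 100.0 and 33.7 in the tumors. Its difference of -2.39 ± 0.50 had an edgeR adjusted p of 0.0570. Over the alternatives by edgeR, DESeq2 and limma together, the adjusted p ranged from 2.32e-04 to 0.538. By edgeR it was 0.0447 without Br53T1, and with the virgin mice as the luminal arm the difference was -1.44 (edgeR adjusted p of 0.538).

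Fasn had 279, 259, 802, 320.4 and 594 CPM in the luminal mice and 189.7, 119.6, 171 and 64 in the tumors. Its difference was -1.88 ± 0.46 with an edgeR adjusted p of 0.0972, and -1.15 with the virgin mice as the luminal arm. Several other genes that feed or extend the fatty acid chain overlapped, with -1.41 ± 0.54 for Acly (-0.34 with the virgin arm), -0.48 ± 0.47 for Acaca and -1.41 ± 0.46 for Elovl7. Acss2, which makes acetyl-CoA from acetate, lay between 0.162 and 7.92 CPM in the luminal mice and had 14.5, 11.5, 16 and 19.3 in the tumors, a difference of 1.72 ± 0.95 with an edgeR adjusted p of 0.464. A single cell gave 80% of these reads in BrT1 and 65% in BrT2, and 46.6% and 55.6% in the Br53 tumors (T1, then T2). Without that cell in each mouse, the tumors had 2.99, 4.15, 8.83 and 8.77 CPM and the luminal mice up to 3.89, so the arms overlapped. Acsl4 had 426, 151, 425, 245 and 268 CPM in the luminal mice and 258, 729, 1241 and 501 in the tumors. BrT1 alone lay within the luminal range, and the difference was 1.05 ± 0.47 with an edgeR adjusted p of 0.349. Of the regulators, Scap had 59.9, 84.8, 43.9 and 53.4 CPM in the tumors, with a difference of 0.82 ± 0.50. Srebf1 was spread widely, with 13 CPM in BrT1 and 17.1 in Br53T2 but 83.1 in BrT2 and 117 in Br53T1, within or below the luminal range of 25.4 to 133.

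Within chip SC6, the only one with both tissues, Br53T2 minus pBrL-2 was -4.70 for Lpin1, -2.56 for Fads1, -6.33 for Btn1a1, -3.26 for Plin2, -3.15 for Xdh and -2.31 for Fasn on the log2(CPM + 1) scale. It was 3.81 for Scd2, 3.91 for Lpin2 and 2.66 for Acss2. These genes are the ones described above. All but Lpin2 did not overlap between the tumors and the Brca1-deficient luminal mice, so their sign in this pair was fixed beforehand. Of the 31 members past the filter in each arm, 26 had the sign of the fit over all mice, which includes this pair, and Acaca, Acsl5, Dgat1, Fabp5 and Vldlr had the opposite sign. The pair has 1 mouse on each side and also differs in pregnancy and in the Trp53 allele, since Br53T2 came from a Br53 mouse and pBrL-2 from a pregnant Br mouse. Tumor and luminal cells were sorted with different gates and, elsewhere, run on different chips, which cannot be told apart from the tissue. Without BrT1, whose luminal markers were low, Fads1 differed by -3.47 and Lpin1 by -3.94, and without Br53T2, with its high basal markers, by -3.59 and -3.93.

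**Figure D3:**
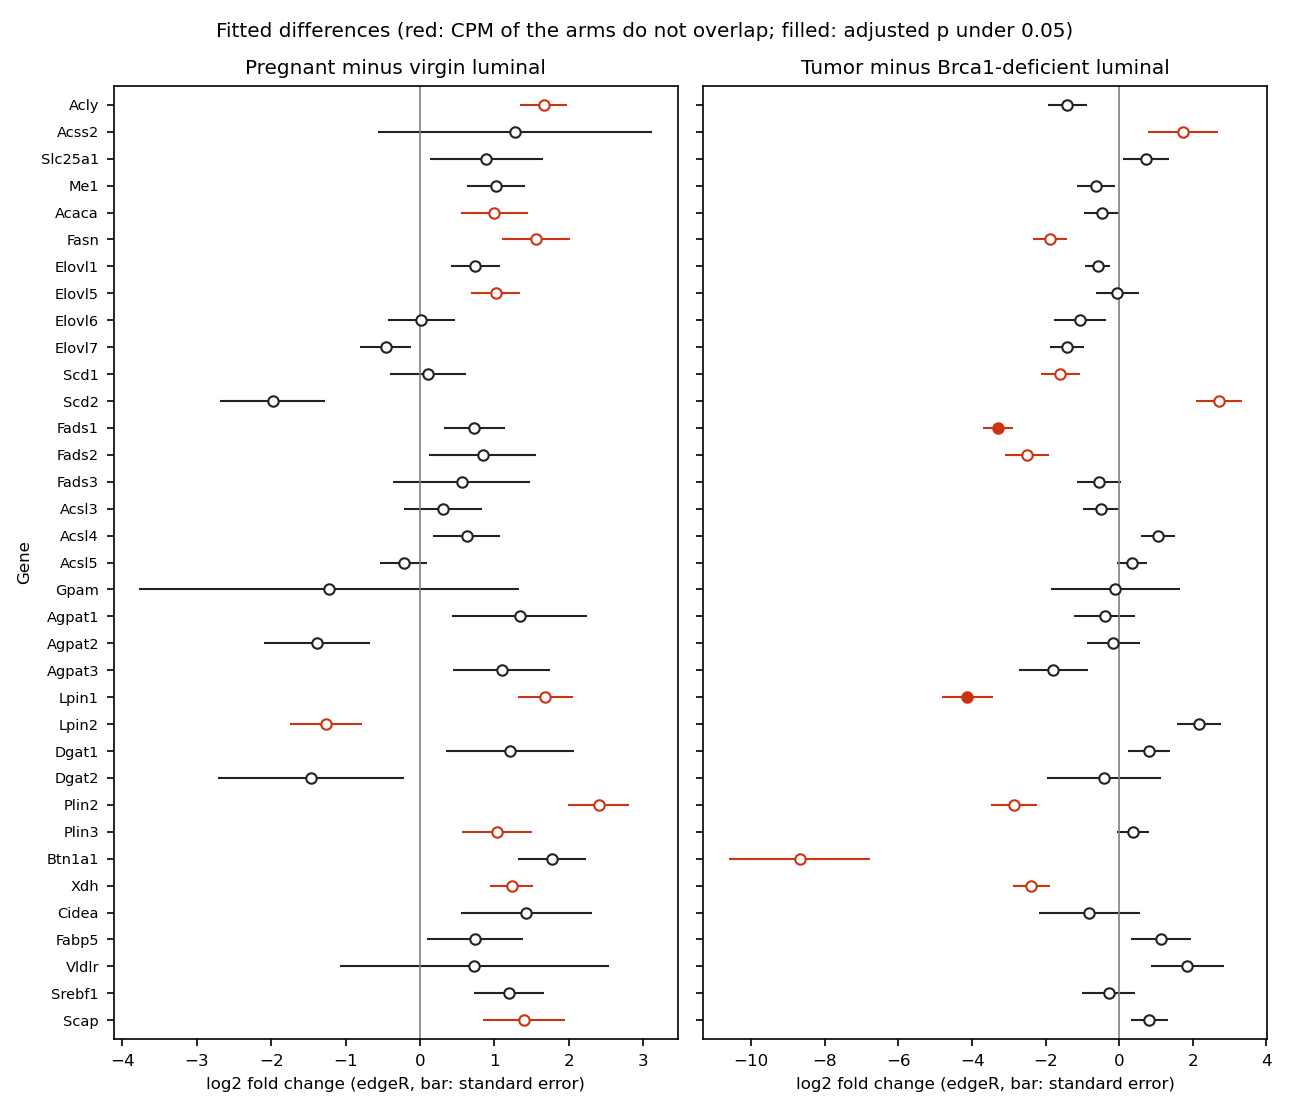
Fitted log2 fold change with its standard error for the members, pregnant against virgin luminal mice on the left and tumors against Brca1-deficient luminal mice on the right; red marks arms whose CPM do not overlap and filled points an adjusted p under 0.05. Fabp4 and Mlxipl, with few reads, and Plin4 and Pparg are not drawn. The horizontal scales differ. On the right, Btn1a1 at -8.69 lies farthest from 0, but it passed the filter only through the luminal mice, so this is no bound on the fold. Gpam, Dgat2 and Cidea, drawn there too, also did not reach the filter in each arm by itself.

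Scd1 and Scd2 encode the same step, the insertion of a double bond into stearate or palmitate, and lie close to each other on chromosome 19 (Scd2 at 44293674 to 44306864, Scd1 at 44394455 to 44407879, GRCm38). Per length, Scd2 was 7.54%, 1.64% and 2.91% of the pair in vBrL, vBr53L and v53L and 1.5%, 0.494%, 0.633% and 0.717% in pBrL-1, pBrL-2, pBr53L and p53L. The tumors had 60.1% (BrT1), 29.2% (BrT2), 20.6% (Br53T1) and 15.4% (Br53T2). The 3 sets of mice did not overlap, and Scd2 exceeded Scd1 only in BrT1. In Br53T1 a single cell held 67.8% of the Scd1 reads, and without it the share of Scd2 was 44.6%. Leaving out the top Scd1 cell in the other tumors gave 61.4%, 30.7% and 18.3% (BrT1, BrT2 and Br53T2) and at most 9.13% in a luminal mouse. The shares were picked out after the values were seen and are given without a test. Scd1 lay between 609 and 2126 CPM in the Brca1-deficient luminal mice and had 118, 602, 550.4 and 585 in the tumors, a difference of -1.61 ± 0.53 with an edgeR adjusted p of 0.20. Scd2 lay between 7.22 and 55.4 CPM in those luminal mice and had 198, 277, 159 and 119 in the tumors, a difference of 2.71 ± 0.62 with an edgeR adjusted p of 0.0709. As near relatives, the genes may share reads that the counting step split or dropped.

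**Figure D4:**
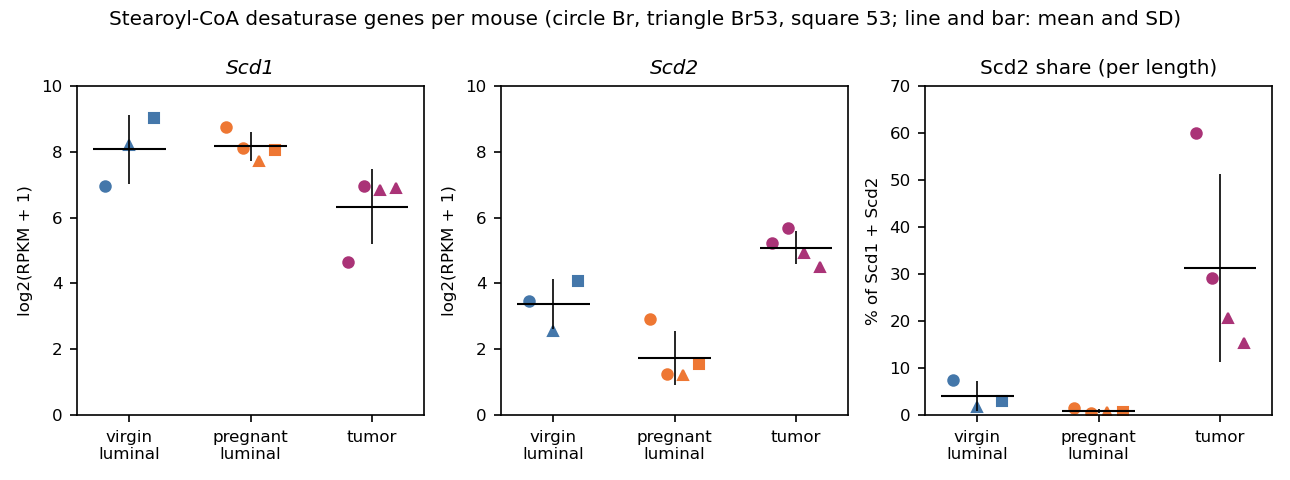
Scd1 and Scd2 per mouse as log2(RPKM + 1) in the first panels, and the share of Scd2 in the sum of both on a linear scale in the third; lines and bars give mean and SD. The Scd2 share is at most 7.54% in luminal mice and at least 15.4% in tumors.

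The third comparison set the 5 Brca1-deficient luminal mice against v53L and p53L, with stage as a covariate. No member passed the test. By edgeR 0 of 37 members were called (all genes 0%, 0 of 13709), with 3 at an unadjusted p under 0.05 (all genes 5.97%) and 0 by DESeq2 (all genes 3.90%). Those 3 were Elovl6, higher by 1.53 ± 0.64, and Btn1a1 and Srebf1, lower by -1.41 ± 0.43 and -1.34 ± 0.48, each with an edgeR adjusted p of 0.778. For both of the latter v53L stood out, with 445 and 105 CPM, above the other virgin mice, and over the alternatives the differences ranged from -2.20 to -0.51 and from -2.08 to -0.51. The same mouse had the lowest Plin2, Fasn and Fads1 of all luminal mice. Both Trp53-only mice were on chip SC9, so genotype and chip cannot be told apart.

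The share of cells with a read, after each cell was thinned to 100000 reads, tells how widely a gene was read. Less RNA per cell lowers this share, as fewer expressing cells do, and it depends on the reads kept. Without thinning, Btn1a1 was read in 53.8% of vBr53L cells. Btn1a1 was read in 37.1%, 30.8% and 52.5% of virgin cells in vBrL, vBr53L and v53L and in 84.5%, 86.8%, 81.1% and 88.9% in pBrL-1, pBrL-2, pBr53L and p53L. In tumors it was read in 0 of 47, 0 of 37 and 0 of 30 cells in BrT1, BrT2 and Br53T1, which allows up to 7.55%, 9.49% and 11.6% by exact 95% intervals, and in 1 of 51 cells (1.96%) in Br53T2. Plin2 was read in 47.5% to 84.6% of cells of virgin mice, 97.2% to 100.0% of pregnant mice and 56.8% to 93.3% of tumors, so that the shares in virgin mice and tumors overlapped. The median Plin2 level of a cell was 832, 487 and 7.52 CPM in vBrL, vBr53L and v53L, 2520.4 to 4359 CPM in the pregnant mice and 68.8, 62.3, 553 and 75.9 CPM in the 4 tumors. Lpin1 ranged from 53.8% to 77.1% in virgin, 86.1% to 95.8% in pregnant and 21.6% to 48.6% in tumor mice, and Xdh from 43.6% to 48.6%, 78.9% to 87.3% and 19.6% to 56.7%. Scd2 ran the other way, from 25.6% to 32.5% in virgin and 7.55% to 21.1% in pregnant mice to 58.8% to 94.6% in tumors. The median number of the 39 genes read in a cell was 11 to 13 in virgin, 17 to 18 in pregnant and 14 to 17.5 in tumor mice.

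**Figure D5:**
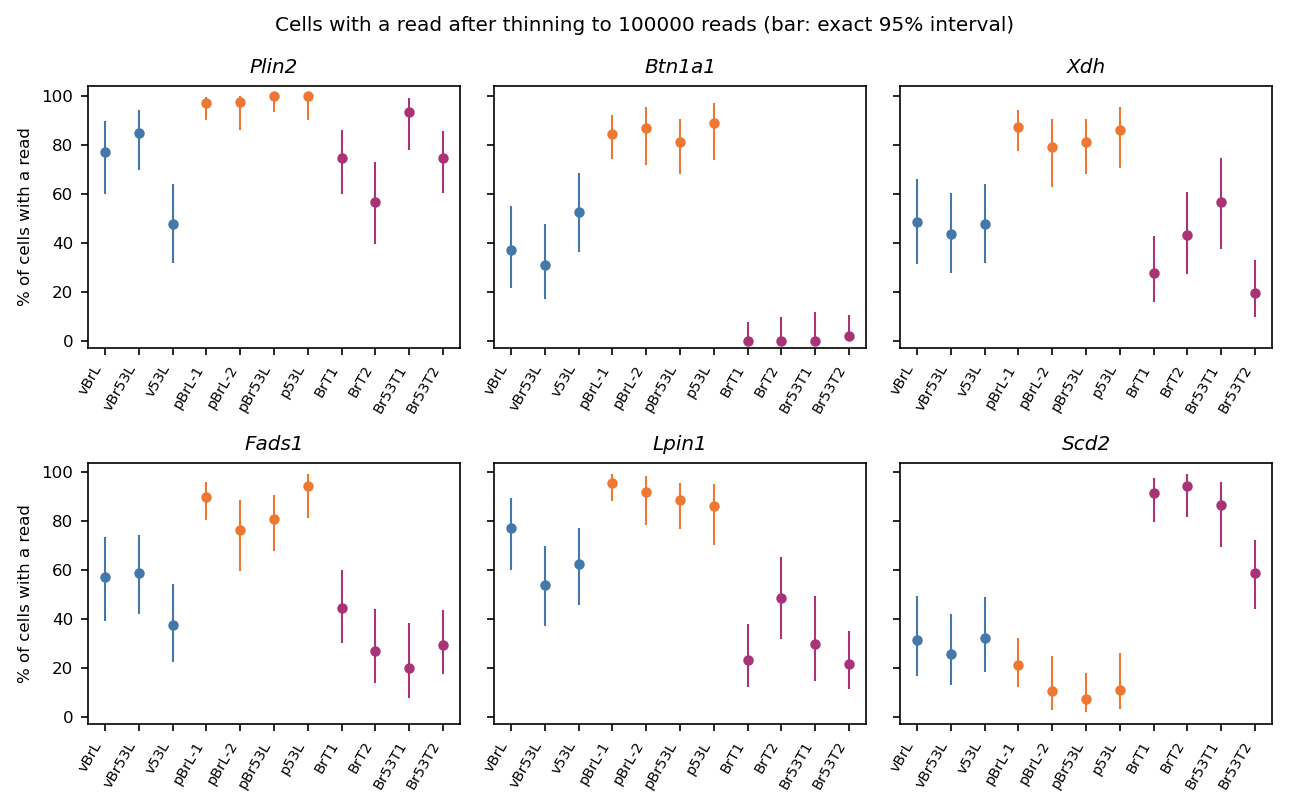
Percentage of cells with at least 1 read after thinning to 100000 reads, per mouse, for 6 genes; bars are exact 95% intervals, which cover counting error only. Btn1a1 is at 0% to 1.96% in the tumors, whereas Plin2 stays at 56.8% or more there.

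Within a mouse, cells also differed among themselves. Across the cells of each luminal mouse, the Spearman correlation of Plin2 with the casein Csn2 was 0.81 in vBrL (35 cells), 0.62 in vBr53L (39 cells) and 0.55 in v53L (40 cells), and 0.42, 0.61, 0.59 and 0.48 in pBrL-1, pBrL-2, pBr53L and p53L. In Br53T2, the only tumor with Csn2 reads in more than 2 cells, it was 0.14 (51 cells, 40 of them with a Csn2 read). Fasn and Acly, neighbours in the pathway, gave -0.21 to 0.35 across the 11 mice. Cells of a mouse share a library run and differ in depth, so these values are descriptions.

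Of 40 other genes of lipid synthesis, storage and breakdown, 36 were tested in tumors, and only Pnpla2, the triglyceride lipase, was called. It fell by 2.62 ± 0.49 on the log2 scale (edgeR adjusted p of 0.0471), and it was called in 11 of 19 alternatives. Of the 28 past the filter in each arm, 3 were lower in every tumor (all such genes 2.43%) and 2 higher (4.64%), DESeq2 called 4 (all genes 6.44%), and the median log2 fold change was 0.15. In pregnancy 37 were tested and 0 called. Of the 28 past the filter in each arm, 4 were higher in every pregnant mouse (all such genes 5.55%) and 1 lower (6.42%), DESeq2 called 3 (all genes 7.67%), and the median was 0.32. In the genotype comparison 0 of 37 were called.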

How the data were processed

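Single cells of 11 mice were sequenced on the C1 platform. The authors filtered reads with sickle, trimmed them with Trim Galore 0.4.1, aligned them with STAR 2.5.3a to mm10 and counted reads per gene with Subread 1.5.3; the deposited values are raw counts per gene and cell. The annotation, the use of strand and filters before deposit are not given in the sources used here. The members and the gene lists were chosen with earlier results of these data known.

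Counts were summed per mouse and tested with edgeR 4.0.16 in R 4.3.3 (filterByExpr, TMM factors, quasi-likelihood test), and a gene was called at a Benjamini-Hochberg adjusted p below 0.05 over all those tested. CPM scale a gene's counts to the total reads of the mouse, and RPKM divide CPM by the exon length of GENCODE vM21. All 39 members may be named. Other lipid genes were named only where called, apart from Lipe, which was named as an adipocyte marker. Counts of members that did not overlap between arms cover genes that reached the filter's CPM in each arm by itself, a limit set after seeing the data, as was leaving out the cell with most reads of a gene. Alternatives were DESeq2 1.42.0, limma 3.58.1 on mean CPM, other factors, filters, cells and arms, and leaving out each mouse. The labels give separate mice. With 1 mouse in most groups, p-values of the tumor comparison measure the spread between mice of an arm, genotypes, stages and chips included. In the pregnancy comparison genotype was a covariate, and in the third comparison stage was. There the p-values measure the spread left after that covariate. No main fit had a term for chip.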

Additional observations from a re-analysis of the deposited data

Results flagged for a closer look

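Among 114 sets of values (a member in an arm of 4 or 5 mice, log2(CPM + 1)), 17 had 1 mouse far from the rest. Independent, normally spread sets would give about 1 in 20, or 5.70. These sets are not independent, since arms share mice, and a gene read in 1 mouse alone gets the highest value by construction. The counts therefore cannot show an excess over chance. The number after each is the gap to the nearest mouse as a share of the arm's whole range. Of the tumors, Br53T2 stood high for Acaca (73.4 CPM, 0.874), Btn1a1 (3.52 CPM, 0.951), Fabp4 (9.90 CPM, 0.992), Mlxipl (1.29 CPM, 0.863) and Plin4 (0.0771 CPM, 1.00). BrT1 stood low for Scd1 (118 CPM, 0.945); in the nearest tumor, Br53T1, 67.8% of the reads came from 1 cell, without which it had 184 CPM. BrT2 stood high for Lpin1 (84.7 CPM, 0.869) and Fabp5, the epidermal fatty acid binding protein (485 CPM, 0.887), and low for Agpat3 (0.240 CPM, 0.926). Br53T1 stood high for Dgat1 (139 CPM, 0.840) and Xdh (100.0 CPM, 0.863). Of the Brca1-deficient luminal mice, pBrL-2 stood high for Acsl3 (138 CPM, 0.788), vBrL for Lpin2 (98.5 CPM, 0.717) and pBr53L for Pparg (0.546 CPM, 0.933). Of the pregnant mice, p53L stood low for Gpam (0.83 CPM, 0.934), pBrL-1 low for Lpin2 (21.8 CPM, 0.905) and pBr53L high for Pparg (0.546 CPM, 1.00).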

How the results depend on the processing

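In the tumor comparison the number of genes called was 79 and became 124 with library totals alone, 808 with DESeq2, 129 without a low-count filter, 394 with limma on mean CPM, 0 with the virgin luminal arm (1278 at an unadjusted p under 0.05), 44 with the pregnant arm, 213 with all luminal mice and 46 among genes past the filter in both arms, chosen after seeing the data; leaving out 1 mouse gave 11 to 94, namely 50 on dropping BrT1, 44 for BrT2, 11 for pBrL-1, 29 for pBrL-2 and 19 for pBr53L. Members called, 2, became 10 with DESeq2 (9 without Btn1a1, which passed the filter through 1 arm alone), 5 without the filter, 6 with limma, 0 with the virgin arm and 4 with all luminal mice, and 1 to 2 on leaving out a mouse. In pregnancy 2 genes called became 967 with DESeq2, 366 without the filter, 63 with limma, 17 without the genotype covariate, 8 within chips SC7 and SC9, and 0 to 4 on leaving out a mouse (0 on dropping vBrL, pBr53L or either pBrL mouse, 4 on dropping vBr53L); members called, 0, became 8 (7 without Fabp4, for the same reason), 6 and 1 with the first 3 of these and stayed at 0 without each mouse. In the genotype comparison 0 genes became 518 with DESeq2, 10 without the filter and 0 to 127 on leaving out a mouse (127 without p53L, 2 without v53L). Library totals alone moved the median of all genes from 0.06 to 0.20 in tumors and from 0.13 to 0.30 for genotype. The cause of these moves was not tested. No called or non-overlapping member changed sign under any alternative run, though non-overlapping members were nearly bound to keep theirs. Of all members compared, 6 of 36 changed sign in tumors with the virgin luminal arm. In pregnancy 5 of 37 did without vBrL, and for genotype 12 of 37 without v53L. Leaving out the cell with most reads of a gene in each mouse, chosen after seeing the data, gave 6 members lower in every tumor in place of 7, and 11 higher in every pregnant mouse in place of 9. Unthinned, Plin2 was read in 100.0% of pregnant and Scd2 in 53.8% of virgin cells (medians over mice); with at least 5 reads, Plin2 was read in 59.1% and Scd2 in 66.9% of tumor cells. Pairing by chip was possible for SC7 and SC9 alone (above), since the labels number mice within a group and pair none by that number. Plin4, Pparg, Fabp4 and Mlxipl had few reads, and whether depth or absence of expression lies behind this was not tested.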

Other observations

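The tumors differed among themselves in fatty acid binding and uptake. Fabp5 had 485 CPM in BrT2 and 34.4 to 46.6 CPM in the other tumors, and the lipoprotein receptor Vldlr had 159 CPM in BrT2 and 10.8 to 19.4 in the others, so that both were highest in the same tumor. Elovl5 was also highest there, at 256 CPM against 35.8 to 68.2, while Agpat3 was at 0.240 CPM. Vldlr was read in 73% of BrT2 cells after thinning, the highest share in any mouse. BrT2 is a single mouse and the only one on its chip, which cannot be told apart from the tumor.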
